A study of Mus musculus with 12 samples.

Results

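The 9 genes described here code for enzymes, carriers and a receptor that make, move, sense and break down retinoic acid, the active form of vitamin A: Adh1, Dhrs3, Aldh1a1, Aldh1a2, Aldh1a3, Crabp1, Crabp2, Rarb and Cyp26b1. They were taken by symbol from the 36512 genes of the count table, and all 9 had enough counts to be tested. Their levels were compared across 4 cell populations that were isolated by flow cytometry from aortas with their perivascular adipose tissue, the fat that wraps the vessel. The populations were labelled progenitor cells, intermediate cells, preadipocytes and smooth muscle cells (SMCs), with 3 libraries each. All libraries came from wild-type pups of the outbred CD-1 strain at postnatal day 3, with males and females mixed, and the labels name no treatment. The labels do not name the markers used to gate the cells. The series asks about the lineage of thermogenic perivascular fat.

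Retinol circulates bound to a carrier protein, enters cells and is oxidised reversibly to retinal, by dehydrogenases such as those of the Adh and Rdh families in the forward direction and by Dhrs3 in the reverse direction. Retinal is then oxidised irreversibly to retinoic acid by the retinal dehydrogenases Aldh1a1, Aldh1a2 and Aldh1a3. Retinoic acid is held by small binding proteins, activates nuclear receptors of the Rar family paired with Rxr, and is cleared by Cyp26 enzymes. In adipose tissue this pathway is known for its links to fat cell differentiation and to thermogenic genes, and in the embryo Aldh1a2 is known as the main source of retinoic acid in the mesoderm and in epicardial and mesothelial layers.

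The libraries held 11701825 to 17123109 counts, so that a count of 0 allowed up to 0.175 to 0.256 CPM by library size, for counting error only. CPM is a gene's count relative to the total of its library. Levels below are CPM after TMM scaling, given as replicates 1, 2 and 3 or as mean ± SD over 3 libraries, and fold changes are log2 with their SE. The labels do not say whether the 3 libraries of a population are from different litters or sorts. A p-value therefore measures only the spread among these libraries, which may be technical. In bulk libraries, fewer cells of a type and less RNA per cell cannot be told apart. The marker sums followed the labels. The sum of 5 smooth muscle markers was 6594 to 7214 CPM in SMC libraries and at most 1005 CPM elsewhere. Tagln, among these markers, reached only 9.23 ± 1.85 CPM in SMC libraries. The sum of 5 progenitor markers was 2785 to 3231 CPM in progenitor libraries and at most 657 CPM elsewhere. Among them, however, Dpp4 stood at 76.6 ± 8.70 CPM in SMC libraries, close to its 93.2 ± 5.34 CPM in progenitors. The sum of 5 preadipocyte and adipocyte markers was 3458 to 5793 CPM in preadipocyte libraries and at most 428 CPM elsewhere. No marker defined the intermediate population, whose libraries held 707 to 1005 CPM of the smooth muscle markers and 637 to 657 CPM of the progenitor markers. Of the latter, Pdgfra, Cd248 and Pi16 stood at means of 303, 235 and 101 CPM there, and Dpp4 and Ly6a at only 4.25 and 1.99 CPM. SMC libraries also held 544 to 721 CPM of 8 Schwann and neuronal markers, against at most 90.7 CPM elsewhere, and preadipocyte replicate 3 held 16225 CPM of 6 red blood cell genes, against 989 and 1244 CPM in the other preadipocyte libraries. The part of these transcripts in the results was not tested.

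The highest mean level was in progenitors for 7 of the 9 genes (Adh1, Dhrs3, Aldh1a3, Crabp1, Crabp2, Rarb and Cyp26b1). The share of all genes tested with their highest mean in progenitors was not counted, so this has no background to be read against. Aldh1a2 was highest in SMC libraries, and Aldh1a1 had its highest mean in intermediate cells. Scaled by library size alone, the mean was highest in progenitors for 5 of the 9, since Adh1 (109 CPM against 98.1 CPM) and Cyp26b1 (2.20 CPM against 2.13 CPM) stood higher in preadipocytes, and Aldh1a1 was highest in SMC libraries (22.0 CPM). Neither Adh1 nor Cyp26b1 differed between progenitors and preadipocytes by the test. With an adjusted p under 0.05 in edgeR's quasi-likelihood test, 7 of the 9 genes differed among the 4 populations, beside 79.8% of all 21285 genes tested. The 2 that did not pass were Aldh1a1 (adjusted p = 0.0533) and Cyp26b1 (adjusted p = 0.0655).

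Against progenitors, 6 genes were lower and none was higher in preadipocytes, beside 50.9% of all genes tested that were called, 25.1% as higher and 25.9% as lower. The median log2 fold change of the 9 genes in this comparison was -1.002, beside 0.04 for all genes tested. Intermediate cells likewise had 6 genes lower and none higher than progenitors, beside 27.6% of all genes called, 14.1% higher and 13.4% lower, with medians of -1.50 and 0.05. SMC libraries had 6 genes lower and 1 higher than progenitors, beside 54.1% of all genes called, 23.6% lower and 30.5% higher. Between preadipocytes and intermediate cells, 2 genes were higher and 3 lower in preadipocytes, beside 57.1% of all genes called, 26.0% higher and 31.1% lower. SMC against intermediate libraries gave 1 gene higher and 3 lower, beside 28.8% of all genes called, 15.7% higher and 13.1% lower. SMC against preadipocyte libraries gave 4 higher and 2 lower, beside 66.6% of all genes called, 40.7% higher and 25.9% lower. The 4 calls between SMC and intermediate libraries became 2 with library size alone and 2 without SMC replicate 1. The 6 comparisons reuse the same libraries and are not independent of each other. Of the 54 values (9 genes in 6 comparisons), 34 passed the threshold, beside 27.6% to 66.6% of all genes called in the single comparisons. Of these, 21 passed it under every alternative setting that was run. The share of all genes that did so was not counted, so the 21 have no background to be read against.

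**Figure D1:**
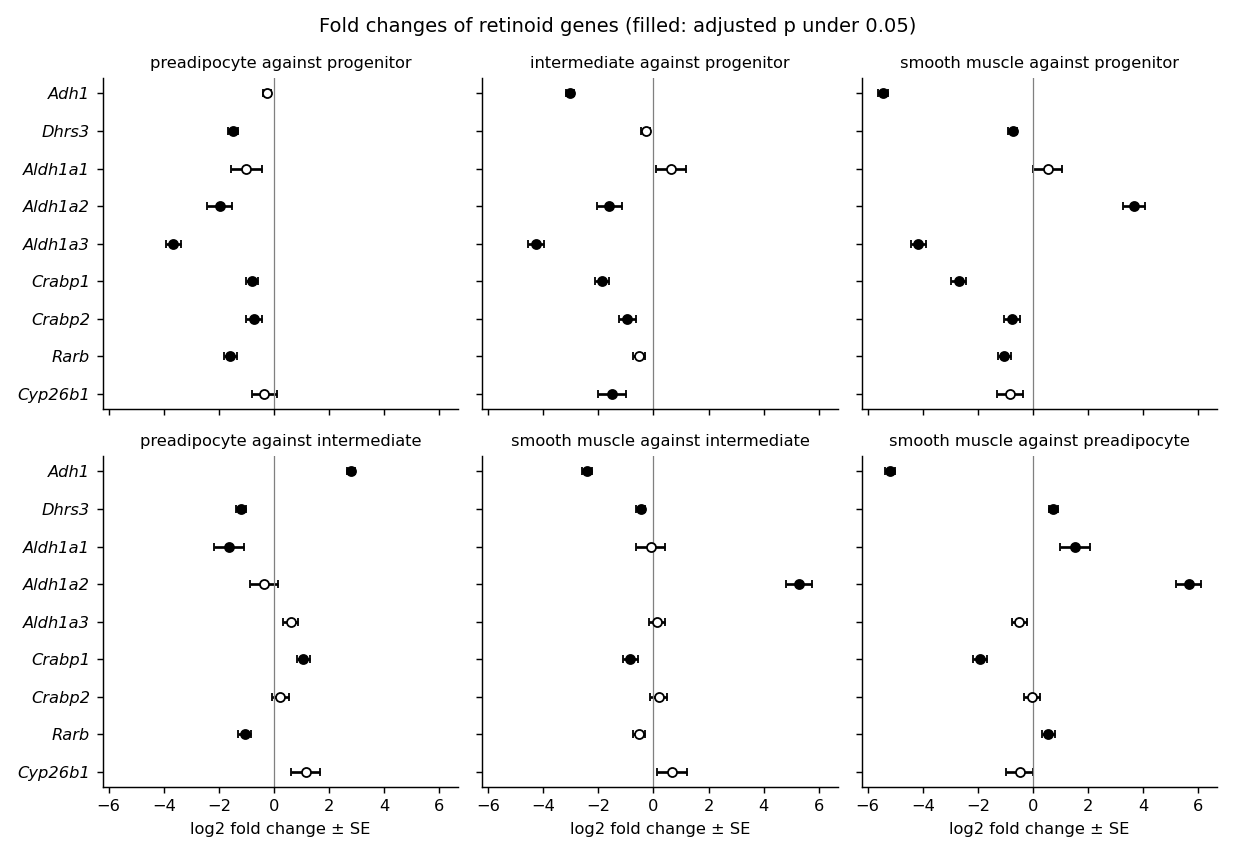
Log2 fold change of each of the 9 genes (x axis) in the 6 comparisons between populations (panels), with bars for the SE and filled points for an adjusted p under 0.05. Aldh1a2 stands at 3.67 to 5.65 in the 3 comparisons of SMC libraries with the others, and Adh1 and Aldh1a3 at -3.03 and -4.27 in intermediate cells against progenitors.

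Adh1 codes for the alcohol dehydrogenase that oxidises retinol to retinal. Its level was 114, 119 and 105 CPM in progenitors, 107, 102 and 76.1 CPM in preadipocytes, 13.4, 13.1 and 15.0 CPM in intermediate cells and 2.87, 2.61 and 2.26 CPM in SMC libraries. Progenitor and preadipocyte libraries overlapped, and every intermediate library lay far below both and above every SMC library. Intermediate cells were 8.16-fold lower than progenitors (log2 -3.03 ± 0.16, adjusted p = 5.68e-09), and preadipocytes were 6.90-fold higher than intermediate cells (log2 2.79 ± 0.15, adjusted p = 7.8e-10). The level in the cells labelled intermediate was thus outside the range set by the progenitor and preadipocyte libraries. Preadipocytes and progenitors differed by -0.24 ± 0.14 (adjusted p = 0.167) and by 0.15 with scaling by library size alone, under which the median of all genes moved from 0.0369 to 0.426. SMC libraries were 43.5-fold lower than progenitors (log2 -5.44 ± 0.18, adjusted p = 2.04e-11). Adh1 (ENSMUSG00000074207) lies on the plus strand of mm10 at chr3:138260991-138290698 with 2233 exon bases, of which 136 overlap the antisense gene Gm16559, with 10 counts over all libraries.

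Dhrs3 codes for the enzyme that reduces retinal back to retinol, and its gene is known to be induced by retinoic acid. Its level was 77.8, 76.7 and 80.6 CPM in progenitors, 65.5, 59.0 and 68.3 CPM in intermediate cells, 43.8, 45.5 and 51.2 CPM in SMC libraries and 35.8, 27.4 and 20.7 CPM in preadipocytes. The 4 populations did not overlap, in this order from high to low. By library size alone, intermediate (50.5 to 58.5 CPM) and SMC libraries (52.1 to 59.5 CPM) overlapped. Preadipocytes were 2.80-fold lower than progenitors (log2 -1.49 ± 0.17, adjusted p = 1.87e-06) and 2.30-fold lower than intermediate cells (log2 -1.20 ± 0.17, adjusted p = 1.42e-05). Progenitors and intermediate cells, neighbours in that order, differed by 0.29 on the log2 scale, which did not pass the test (log2 -0.29 ± 0.16, adjusted p = 0.202). That difference passed with no filter on low counts (-0.51, adjusted p = 0.0406). SMC libraries were 1.67-fold lower than progenitors (adjusted p = 0.00148, and 0.125 with library size alone) and 1.67-fold higher than preadipocytes (adjusted p = 0.00106, and 0.159 with no filter on low counts). Against intermediate cells, SMC libraries were lower by a log2 value of -0.46 ± 0.16 (adjusted p = 0.0473), a call lost with library size alone (0.029) and without SMC replicate 1 (-0.41), 2 (-0.44) or 3 (-0.54). Dhrs3 (ENSMUSG00000066026) lies at chr4:144892827-144928209 on the plus strand.

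Per kilobase of exon, the scale on which levels of different genes are compared here, CPM were by library size alone, without TMM, a choice that ratios and shares within a library do not depend on. Adh1 stood above Dhrs3 in progenitors, with a ratio of 1.89 ± 0.168, and in preadipocytes, with a ratio of 4.55 ± 0.533. It stood below Dhrs3 in intermediate cells, with a ratio of 0.282 ± 0.0125, and in SMC libraries, with a ratio of 0.0730 ± 0.0142. The ranges of this ratio did not overlap between any 2 populations. Retinoic acid receptors bind pairs of hexamers, so the windows from 250 bases before to 50 bases after each RefSeq transcript start on GRCm38.p6 were searched on both strands for the hexamer AGGTCA and for its variants, which were AGTTCA, then GGGTCA, and lastly GGTTCA. The single Adh1 window and the 3 Dhrs3 windows held none of them, beside 43.7% of all 32544 windows with at least 1. The Adh1 window (chr3:138277335-138277634, plus strand, inside the annotated gene, 45.3% GC) is shown as the start of the gene with the larger range of these 2.
Adh1: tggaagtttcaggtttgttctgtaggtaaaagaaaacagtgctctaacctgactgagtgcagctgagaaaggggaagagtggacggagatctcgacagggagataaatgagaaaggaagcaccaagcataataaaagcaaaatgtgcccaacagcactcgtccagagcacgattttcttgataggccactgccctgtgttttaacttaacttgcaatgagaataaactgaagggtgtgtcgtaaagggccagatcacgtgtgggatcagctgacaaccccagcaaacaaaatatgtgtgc

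**Figure D2:**
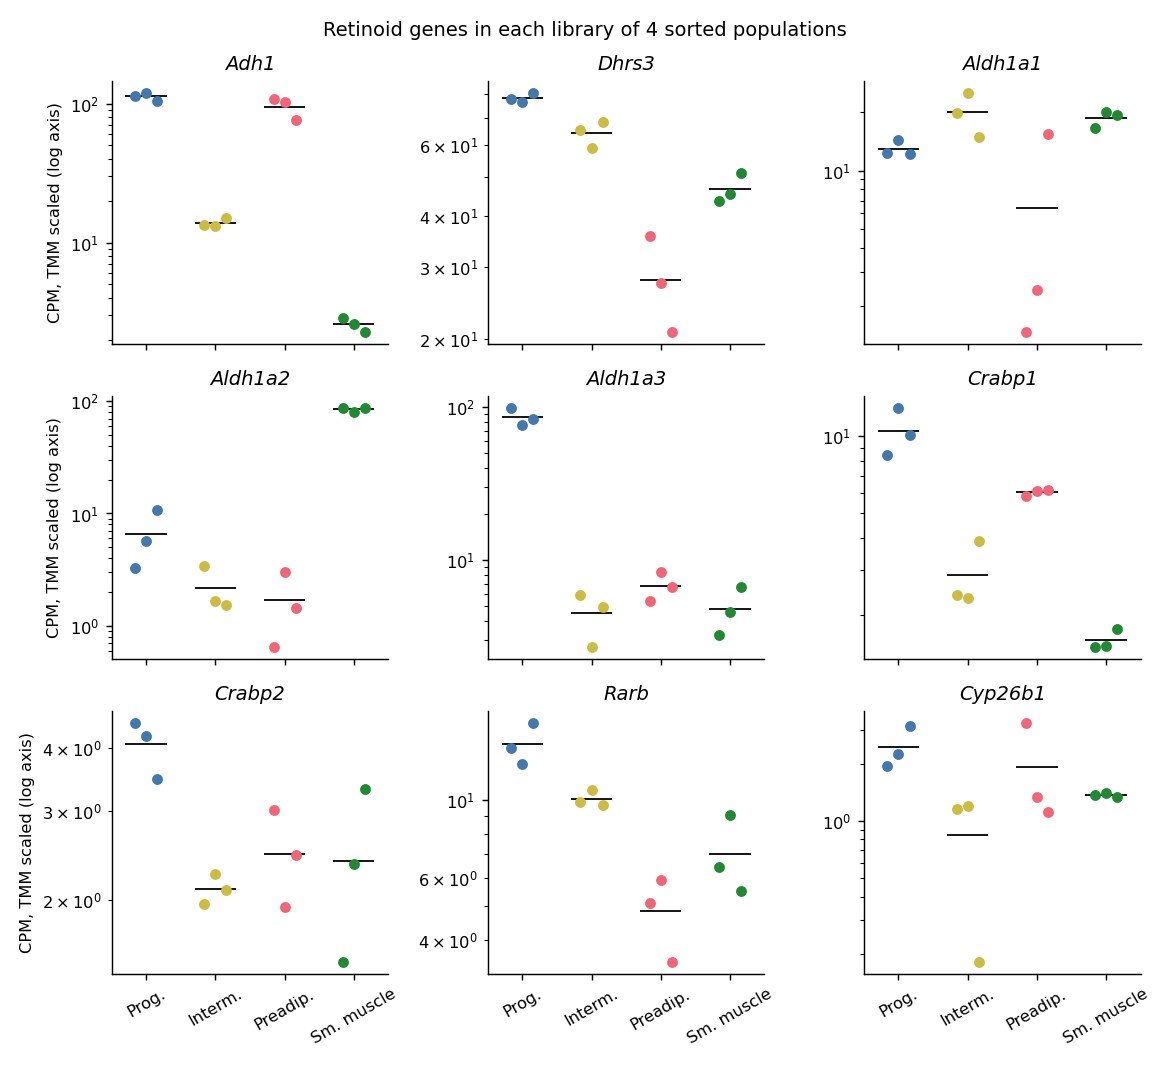
CPM after TMM scaling (y axis, log scale, different for each gene) of the 9 genes in each library of the 4 populations, with a line at each mean. Aldh1a3 lies at 76.5 to 98.6 CPM in progenitor libraries and at most 8.34 CPM elsewhere, and Aldh1a1 in preadipocyte replicate 3 lies at 15.4 CPM against 1.46 and 2.42 CPM in the other preadipocyte libraries.

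The 3 retinal dehydrogenases, which make retinoic acid, were each distributed differently. Aldh1a3 was highest in progenitors. It stood at 98.6, 76.5 and 83.0 CPM there, at 5.88, 2.71 and 4.91 CPM in intermediate cells, at 5.40, 8.34 and 6.68 CPM in preadipocytes and at 3.23, 4.58 and 6.64 CPM in SMC libraries. Every progenitor library lay above every other library, and the other 3 populations overlapped each other. By library size alone, intermediate (2.32 to 4.83 CPM) and preadipocyte libraries (6.35 to 8.87 CPM) did not overlap. Progenitors were 12.6-fold above preadipocytes (log2 -3.66 ± 0.27 for preadipocyte minus progenitor, adjusted p = 2.18e-08). They were 19.3-fold above intermediate cells (log2 -4.27 ± 0.29, adjusted p = 5.79e-08) and 17.8-fold above SMC libraries (log2 -4.16 ± 0.28, adjusted p = 1.09e-08). None of the comparisons among the other 3 populations passed, the largest being 0.61 ± 0.28 for preadipocytes minus intermediate cells (adjusted p = 0.0763). That difference passed with DESeq2 (0.74), with scaling by library size alone (1.04) and without intermediate replicate 1 (1.01) or preadipocyte replicate 1 (0.77). SMC libraries minus preadipocytes (-0.50 ± 0.27) passed without preadipocyte replicate 1 (-0.68) or SMC replicate 3 (-0.82), and with no filter on low counts (-0.93). Aldh1a3 (ENSMUSG00000015134) lies at chr7:66390890-66427517 on the minus strand.

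Aldh1a2 was highest in SMC libraries, with 87.2, 79.4 and 87.3 CPM in SMC libraries against 3.26, 5.68 and 10.9 CPM in progenitors. It stood at 3.39, 1.65 and 1.54 CPM in intermediate cells and at 0.648, 3.02 and 1.45 CPM in preadipocytes. SMC libraries lay above all others, 12.7-fold above progenitors (log2 3.67 ± 0.41, adjusted p = 2.65e-06). They were 38.7-fold above intermediate cells (log2 5.27 ± 0.46, adjusted p = 3.42e-07) and 50.1-fold above preadipocytes (log2 5.65 ± 0.46, adjusted p = 4.89e-08). Below them, progenitors exceeded preadipocytes without overlap (log2 -1.98 ± 0.45 for preadipocyte minus progenitor, adjusted p = 0.00169). By library size alone these populations overlapped (2.84 to 9.46 CPM in progenitors, 0.762 to 3.22 CPM in preadipocytes). Progenitors and intermediate cells overlapped, and their difference (log2 -1.60 ± 0.46, adjusted p = 0.0182) no longer passed without progenitor replicate 3 (-1.05, adjusted p = 0.0982) or without intermediate replicate 2 (-1.55). Aldh1a2 (ENSMUSG00000013584) lies at chr9:71215789-71296243 on the plus strand.

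Aldh1a2 moved together with markers of mesothelium, the cell layer that lines the body cavities and covers organs, in which this gene is known to be expressed. All 9 of 9 mesothelial markers (Wt1, Upk3b, Upk1b, Msln, Lrrn4, Krt8, Krt18, Krt19 and Muc16) were higher in SMC libraries than in each other population, and none was at 0 in all libraries of any population. Their sum was 1276 to 1766 CPM in SMC libraries, 94.8 to 212 CPM in progenitors, 26.4 to 93.6 CPM in intermediate cells and 21.1 to 66.8 CPM in preadipocytes. Upk3b, a urothelial plaque protein also made by mesothelium, stood at 419 ± 77.1 CPM in SMC libraries, and Msln, the mesothelial surface protein mesothelin, at 338 ± 86.6 CPM. Within each population the library with most Aldh1a2 also had the highest sum, narrowly so in SMC libraries, while the other 2 libraries ranked in opposite order by gene and by sum. Progenitor replicate 3 had 10.9 CPM of Aldh1a2 and a sum of 212 CPM, intermediate replicate 1 had 3.39 CPM and 93.6 CPM, preadipocyte replicate 2 had 3.02 CPM and 66.8 CPM, and SMC replicate 3 had 87.3 CPM and 1766 CPM. SMC replicate 1 had 87.2 CPM of Aldh1a2 with the lowest SMC sum, 1276 CPM, and by library size alone it had more Aldh1a2 than replicate 3 (104 against 101 CPM). Over all 12 libraries Aldh1a2 stood at 2.32% to 6.88% of that sum. The Schwann and neuronal sum was also far higher in SMC libraries (544 to 721 CPM, at most 90.7 CPM elsewhere). Its highest library matched that of Aldh1a2 in progenitors (replicate 3), intermediate cells (replicate 1) and SMC libraries (replicate 3). In preadipocytes it was highest in replicate 1 (90.7 CPM) and not in replicate 2 (75.5 CPM). The part of mesothelial, Schwann or neuronal RNA in the Aldh1a2 differences was not tested.

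**Figure D3:**
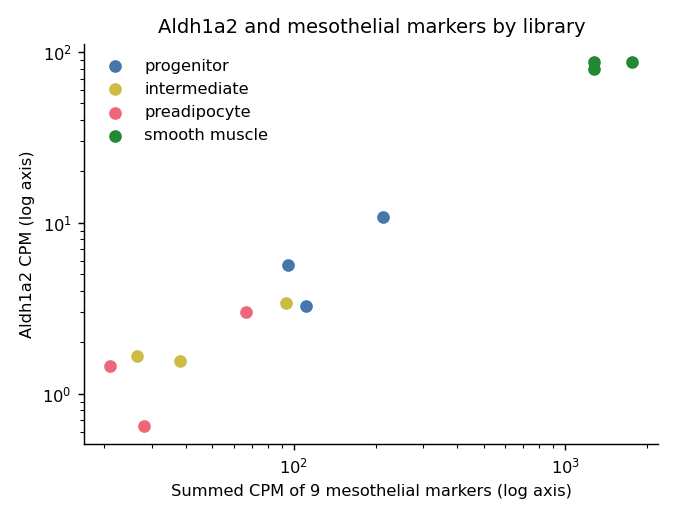
Aldh1a2 level (y axis, CPM, log scale) against the summed CPM of 9 mesothelial markers (x axis, log scale) in each of the 12 libraries, coloured by population. The 3 SMC libraries lie together at 79.4 to 87.3 CPM of Aldh1a2 and 1276 to 1766 CPM of markers, and all other libraries lie at most at 10.9 and 212 CPM.

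Aldh1a1 was the retinal dehydrogenase with the least difference between progenitor, intermediate and SMC libraries. It stood at 12.3, 14.4 and 12.1 CPM in progenitors, at 19.9, 25.2 and 15.0 CPM in intermediate cells and at 16.6, 20.2 and 19.4 CPM in SMC libraries. None of the 3 comparisons among these populations passed, with log2 differences of 0.63 ± 0.53 for intermediate minus progenitor, 0.53 ± 0.53 for SMC minus progenitor and -0.10 ± 0.53 for SMC minus intermediate. Progenitor libraries nevertheless lay below every intermediate and every SMC library. With only the 2 compared populations in the fit, both differences from progenitors passed (0.71 ± 0.18, adjusted p = 0.0068, and 0.55 ± 0.14, adjusted p = 0.00405). In preadipocytes the libraries split, with 1.46 and 2.42 CPM in replicates 1 and 2 and 15.4 CPM in replicate 3, the library with 16225 CPM of red blood cell genes. Preadipocytes were lower than intermediate cells (log2 -1.64 ± 0.55, adjusted p = 0.019) and SMC libraries higher than preadipocytes (log2 1.54 ± 0.55, adjusted p = 0.0219), but both calls were lost with DESeq2. Both were also lost with only the 2 compared populations in the fit (-1.51, adjusted p = 0.107, and 1.29, adjusted p = 0.129). The first was further lost with library size alone (-1.17, adjusted p = 0.0959) and without intermediate replicate 1 (-1.46), intermediate replicate 2 (-1.31) or preadipocyte replicate 2 (-1.24). The second was further lost without preadipocyte replicate 1 (1.02), preadipocyte replicate 2 (1.12) or SMC replicate 2 (1.47). Against progenitors the difference was -1.002 ± 0.55 (adjusted p = 0.142). Without preadipocyte replicate 3 it was -2.74 (adjusted p = 1.53e-08), and the comparisons with intermediate and SMC libraries became -3.36 and 3.24. Aldh1a1 (ENSMUSG00000053279, chr19:20492715-20643465, plus strand) has a near copy, Aldh1a7, and reads shared by both could have been counted to either. Aldh1a7 stood at 4.67 ± 0.809 CPM in preadipocytes and below 1 CPM on average in the other populations.

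Per kilobase of exon, the 3 dehydrogenases summed to 49.8 ± 1.85 CPM per kb in SMC libraries and to 21.0 ± 1.68 CPM per kb in progenitors. The sum was 5.06 ± 0.836 CPM per kb in intermediate cells and 4.03 ± 2.06 CPM per kb in preadipocytes. After TMM scaling the sums were 42.0 ± 1.88, 24.1 ± 1.89, 5.99 ± 1.07 and 3.52 ± 1.73 CPM per kb in the same order. Aldh1a3 made up 77.0 ± 6.76% of the sum in progenitors, Aldh1a1 made up 67.4 ± 10.7% in intermediate cells and Aldh1a2 made up 88.5 ± 1.68% in SMC libraries. Preadipocytes had no constant leading enzyme: Aldh1a3 led in replicates 1 and 2, with 66.8% and 49.8%, and Aldh1a1 led in replicate 3, with 60.0%. With the length of the longest principal transcript in place of all exons, a choice added after the data were seen, the same enzymes led in progenitors (74.7%), intermediate cells (78.4%) and SMC libraries (80.0%). With that length the sums by library size were 55.1, 29.1, 9.08 and 6.27 CPM per kb in SMC libraries, progenitors, intermediate cells and preadipocytes.

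**Figure D4:**
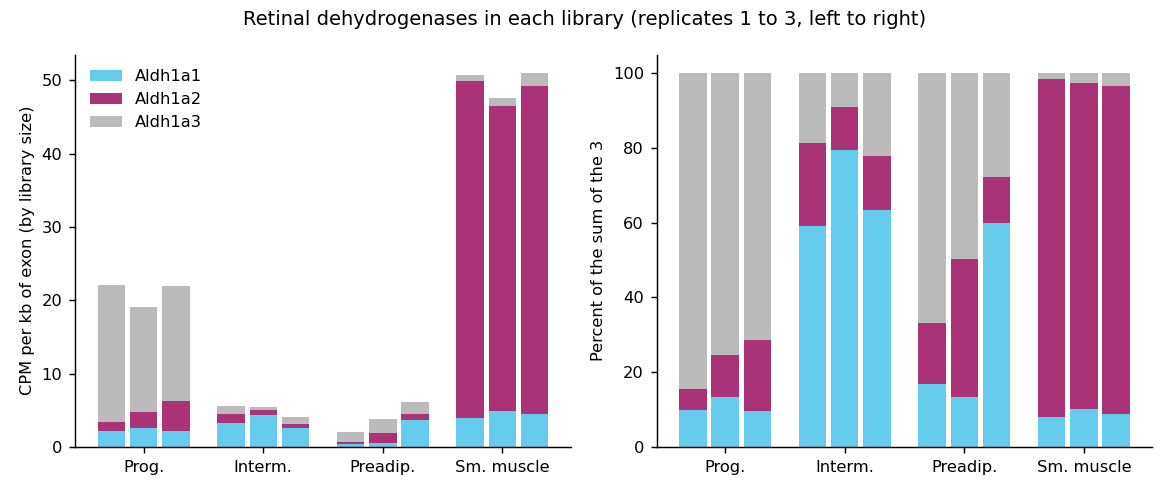
Level per kilobase of exon (left, CPM per kb by library size alone, stacked) and share of the sum (right, percent) of Aldh1a1, Aldh1a2 and Aldh1a3 in each library, replicates 1 to 3 from left to right in each population. Aldh1a2 takes 87.4% to 90.5% of the sum in SMC libraries, and Aldh1a3 takes 71.3% to 84.5% in progenitor libraries.

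The starts of Aldh1a1 and Aldh1a2 differ in base composition, and they are printed to show these windows beside the levels. The Aldh1a2 window (chr9:71215539-71215838, plus strand) has 78.0% GC, more than 98.0% of all windows, whose median is 53.0%, and holds none of the 4 hexamers. The Aldh1a1 window at chr19:20601718-20602017 (plus strand) has 47.0% GC and a single hexamer, in capitals, which reads GGGTCA on the opposite strand, with 43 bases between it and the start. The other Aldh1a1 window holds none. Sequences are those of RefSeq on GRCm38.p6, which mm10 names, and Aldh1a3 and Crabp2 are not shown.
Aldh1a2: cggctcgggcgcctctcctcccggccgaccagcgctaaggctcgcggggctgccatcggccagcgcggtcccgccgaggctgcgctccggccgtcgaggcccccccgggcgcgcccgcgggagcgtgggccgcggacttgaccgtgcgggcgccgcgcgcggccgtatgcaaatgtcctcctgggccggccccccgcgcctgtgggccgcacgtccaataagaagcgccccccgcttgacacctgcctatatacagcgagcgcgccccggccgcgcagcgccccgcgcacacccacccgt
Aldh1a1: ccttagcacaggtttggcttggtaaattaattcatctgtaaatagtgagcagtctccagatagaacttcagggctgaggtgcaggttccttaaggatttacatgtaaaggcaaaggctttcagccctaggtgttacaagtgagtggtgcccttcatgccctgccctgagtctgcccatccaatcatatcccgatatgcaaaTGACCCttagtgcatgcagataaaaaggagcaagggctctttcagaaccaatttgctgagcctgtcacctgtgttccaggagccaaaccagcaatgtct

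Crabp1 and Crabp2 code for the cellular retinoic acid binding proteins, known to hand retinoic acid to degrading enzymes and to nuclear receptors, respectively. Crabp1 stood at 8.38, 12.9 and 10.1 CPM in progenitors, at 5.83, 6.10 and 6.13 CPM in preadipocytes, at 2.41, 2.33 and 3.91 CPM in intermediate cells and at 1.51, 1.53 and 1.77 CPM in SMC libraries. The 4 populations did not overlap, except intermediate and SMC libraries by library size alone (1.98 to 3.34 and 1.79 to 2.05 CPM). Intermediate cells again lay below both progenitors and preadipocytes. They were 3.64-fold lower than progenitors (log2 -1.86 ± 0.25, adjusted p = 5.46e-05), and preadipocytes were 2.10-fold higher than intermediate cells (log2 1.07 ± 0.25, adjusted p = 0.00157). SMC libraries were 6.51-fold below progenitors (log2 -2.70 ± 0.26, adjusted p = 4.68e-07) and 3.75-fold below preadipocytes (log2 -1.91 ± 0.26, adjusted p = 9.82e-06). The difference between preadipocytes and progenitors (log2 -0.80 ± 0.23, adjusted p = 0.0081) did not pass with library size alone (-0.41, adjusted p = 0.149). That between SMC and intermediate libraries (log2 -0.84 ± 0.27, adjusted p = 0.0281) did not pass there either (-0.36), nor without SMC replicate 1 (-0.80), SMC replicate 2 (-0.81) or intermediate replicate 3 (-0.79). Crabp1 (ENSMUSG00000032291) lies at chr9:54764748-54773110 on the plus strand.

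Crabp2 was lower and flatter, at 4.50, 4.24 and 3.48 CPM in progenitors, 1.96, 2.26 and 2.09 CPM in intermediate cells, 3.02, 1.93 and 2.45 CPM in preadipocytes and 1.51, 2.35 and 3.32 CPM in SMC libraries. Progenitor libraries lay above all others and the remaining populations overlapped. By library size alone, SMC replicate 3 (3.85 CPM) and preadipocyte replicate 1 (3.56 CPM) lay within the progenitor range (3.04 to 3.92 CPM). The difference from progenitors was -0.95 ± 0.30 in intermediate cells (adjusted p = 0.0291), -0.72 ± 0.29 in preadipocytes (adjusted p = 0.0487) and -0.76 ± 0.29 in SMC libraries (adjusted p = 0.0375). Each of these calls was lost under some setting, the first without progenitor replicate 1 (adjusted p = 0.0907) and the other 2 with library size alone and with DESeq2. The preadipocyte call was also lost on leaving out any library of the pair except preadipocyte replicate 1 (-0.57 to -0.82), and the SMC call without progenitor replicate 1 (-0.72), SMC replicate 1 (-0.53) or SMC replicate 2 (-0.76). These libraries held only 21 to 62 counts of Crabp2 each. Per kilobase, Crabp1 stood 4.28 ± 1.06 times above Crabp2 in progenitors, 4.17 ± 1.01 times in preadipocytes, 2.27 ± 0.721 times in intermediate cells and 1.20 ± 0.402 times in SMC libraries, of which 1 had a ratio of 0.877. With the principal transcript length these ratios were 3.02, 2.93, 1.60 and 0.844, so that the order of the 2 genes in SMC libraries turned with the length used. Crabp2 (ENSMUSG00000004885) lies at chr3:87948666-87953376 on the plus strand.

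Rarb codes for retinoic acid receptor beta, a nuclear receptor whose own gene is a known target of retinoic acid. It stood at 14.1, 12.7 and 16.7 CPM in progenitors, at 9.89, 10.7 and 9.72 CPM in intermediate cells, at 6.46, 9.10 and 5.51 CPM in SMC libraries and at 5.07, 5.92 and 3.45 CPM in preadipocytes. Only SMC and preadipocyte libraries overlapped. By library size alone these 2 did not, while SMC (6.40 to 10.8 CPM) and intermediate libraries (8.13 to 9.13 CPM) did. Preadipocytes were 3.01-fold below progenitors (log2 -1.59 ± 0.23, adjusted p = 2.97e-05) and 2.10-fold below intermediate cells (log2 -1.07 ± 0.23, adjusted p = 0.00106). SMC libraries were 2.06-fold below progenitors (log2 -1.04 ± 0.23, adjusted p = 0.00144). Intermediate cells differed from progenitors by -0.52 ± 0.23 (adjusted p = 0.0978) and SMC libraries from intermediate cells by -0.52 ± 0.23 (adjusted p = 0.105), and neither passed. The first passed without progenitor replicate 2 (-0.77), and the second without intermediate replicate 3 (-0.77) or SMC replicate 2 (-0.76). Both also passed with no filter on low counts (-0.75 and -0.78) and with the 2 compared populations alone (-0.44 and -0.57). The difference of SMC libraries from preadipocytes was 0.55 ± 0.23 (adjusted p = 0.0499), a call lost with DESeq2 (0.43) and with DESeq2-type size factors (0.45). It was also lost with no filter on low counts (0.11, adjusted p = 0.734) and with the 2 compared populations alone (0.35, adjusted p = 0.301). The same held without preadipocyte replicate 1 (0.54), preadipocyte replicate 3 (0.32), SMC replicate 1 (0.60) or SMC replicate 2 (0.30). Rarb (ENSMUSG00000017491) lies at chr14:16430839-16819156 on the minus strand, and 1793 of its 5265 exon bases overlap Top2b on the opposite strand, which had 27427 counts over all libraries. Whether the counting used strand is not given, so reads of the 2 genes in that stretch cannot be told apart.

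The Rarb window was the only one of the 10 windows found for 7 of the 9 genes with a direct repeat of 2 hexamers 1, 2 or 5 bases apart, the arrangements known to be bound by pairs of Rar and Rxr. It spans chr14:16575427-16575726 on the minus strand, inside the annotated gene, with 57.7% GC. It holds 3 hexamers in capitals. The last 2, GGTTCA and AGTTCA, form a repeat with 5 bases between them (DR5) on the strand printed below, which reads as the transcript does. The repeat is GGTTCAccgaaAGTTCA at chr14:16575513-16575529, with 36 bases between it and the start. The first, GGGTCA, has 77 bases between it and the start. A DR5 of these hexamers on either strand was present in 32 of the 32544 windows (0.0983%), and repeats with 1 and 2 bases between were present in 0.224% and 0.27%. A match describes these letters and shows no binding in these cells.
Rarb: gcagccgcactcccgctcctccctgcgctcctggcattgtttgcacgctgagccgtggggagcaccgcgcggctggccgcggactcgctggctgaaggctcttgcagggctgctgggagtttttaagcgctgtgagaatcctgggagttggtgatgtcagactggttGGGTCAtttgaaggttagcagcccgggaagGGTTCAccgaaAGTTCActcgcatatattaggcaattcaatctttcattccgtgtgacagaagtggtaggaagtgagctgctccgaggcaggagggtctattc

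Cyp26b1 codes for a cytochrome P450 that clears retinoic acid, and it was scarce in every population. It stood at 1.94, 2.26 and 3.15 CPM in progenitors, at 1.16, 1.20 and 0.182 CPM in intermediate cells, at 3.29, 1.33 and 1.11 CPM in preadipocytes and at 1.36, 1.40 and 1.34 CPM in SMC libraries, from 2 to 61 counts a library. Progenitor libraries lay above intermediate and SMC libraries and overlapped with preadipocytes. The difference of intermediate cells from progenitors passed narrowly (log2 -1.50 ± 0.51, adjusted p = 0.041), and no longer did so without intermediate replicate 3 (-1.18), progenitor replicate 1 (-1.66) or progenitor replicate 3 (-1.30). No other comparison passed. Preadipocytes minus intermediate cells gave 1.15 ± 0.52 (adjusted p = 0.0681). This passed with library size alone (1.59), with DESeq2 (1.28) and with no filter on low counts (1.32). It also passed without intermediate replicate 1 (1.56), intermediate replicate 2 (1.58) or preadipocyte replicate 3 (1.44). SMC libraries minus progenitors (-0.84) passed with no filter on low counts (-1.32) and with the 2 compared populations alone (-0.83). As a gauge of counts from genes that these cells are not known to use, 1153 olfactory and vomeronasal receptor genes stood at 0.197 ± 0.0375 CPM per kb by library size in SMC libraries, 0.0539 ± 0.0230 in intermediate cells, 0.0238 ± 0.0183 in preadipocytes and 0.0153 ± 0.00631 in progenitors. Cyp26b1 stood 1.53 times above this level in SMC libraries (0.302 CPM per kb), 2.47 times in intermediate cells, where it was above it in 2 of 3 libraries, and 17.3 and 26.1 times in preadipocytes and progenitors. Adh1 and Aldh1a3 in SMC libraries stood 6.94 and 6.24 times above it. Cyp26b1 (ENSMUSG00000063415) lies at chr6:84571414-84593908 on the minus strand.

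Of 46 other genes of the pathway, 45 were in the table and 39 were tested. Cyp26c1 was not analysed here. Against progenitors, preadipocytes had 13 of them higher and 15 lower (28 of 39, beside 50.9% of all genes called), intermediate cells 2 higher and 7 lower (9 of 39, beside 27.6%), and SMC libraries 12 higher and 12 lower (24 of 39, beside 54.1%). The 7 lower in intermediate cells became 13 with no filter on low counts and without intermediate replicate 1. Preadipocytes against intermediate cells gave 11 higher and 16 lower (beside 57.1% of all genes called), SMC libraries against intermediate cells gave 9 and 8 (beside 28.8%), and SMC libraries against preadipocytes gave 16 and 13 (beside 66.6%).

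Among genes of uptake and storage, Rbp4, the carrier of retinol in blood, stood at 95.6 ± 12.5, 77.4 ± 7.11 and 106 ± 25.8 CPM in progenitors, intermediate cells and preadipocytes, whose 3 comparisons did not pass. It was lower in SMC libraries, at 9.37 ± 2.84 CPM (log2 -3.35 ± 0.22 against progenitors, adjusted p = 9.09e-09). Stra6, the receptor that takes up retinol from Rbp4, was low, with 3.61 ± 0.228 CPM in SMC libraries, 2.02 ± 0.539 CPM in progenitors and 0.667 ± 0.269 and 0.698 ± 0.222 CPM in intermediate cells and preadipocytes. Dgat1, which makes triglycerides and can esterify retinol, was highest in preadipocytes, at 111 ± 51.6 CPM against 33.3 ± 3.72 CPM in progenitors (log2 1.74 ± 0.25, adjusted p = 2.6e-05).

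Among enzymes that interconvert retinol and retinal, Rdh10, the main retinol dehydrogenase of the embryo, stood at 86.4 ± 8.84 CPM in progenitors and 86.3 ± 6.88 CPM in intermediate cells. It was lower in preadipocytes, at 41.5 ± 4.39 CPM (log2 -1.06 ± 0.15 against progenitors, adjusted p = 1.61e-05), and in SMC libraries, at 51.7 ± 8.91 CPM (log2 -0.74 ± 0.14, adjusted p = 0.000612). Rdh12, a retinal reductase best known from the retina, had its highest level in preadipocytes, at 20.7 ± 8.97 CPM against 2.41 ± 0.347 CPM in progenitors (log2 3.09 ± 0.31, adjusted p = 5.07e-07). Dhrs9 was highest in SMC libraries, at 32.9 ± 2.56 CPM against 3.51 ± 2.48 CPM in progenitors (log2 3.22 ± 0.38, adjusted p = 4.79e-06). Like Aldh1a2, Dhrs9 had its highest progenitor level in replicate 3, at 6.36 CPM against 2.25 and 1.91 CPM. Adh5 and Dhrs4 were highest in preadipocytes, at 160 ± 28.0 and 58.4 ± 11.8 CPM.

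Among receptors, Rarg resembled Rarb in its low level in preadipocytes, at 5.11 ± 2.46 CPM against 36.4 ± 0.984 CPM in progenitors (log2 -2.83 ± 0.24, adjusted p = 1.11e-07). Rarg stood at 38.3 ± 1.70 CPM in intermediate cells and 18.2 ± 0.504 CPM in SMC libraries. Rara was also lower in preadipocytes, at 19.0 ± 6.85 CPM against 32.7 ± 2.49 CPM in progenitors (log2 -0.78 ± 0.21, adjusted p = 0.0051). The partner receptor Rxrg went the other way, from 2.01 ± 0.353 CPM in progenitors to 33.2 ± 9.66 CPM in preadipocytes (log2 4.04 ± 0.34, adjusted p = 9.64e-08). Rxra differed from progenitors in intermediate cells (log2 1.37 ± 0.38, adjusted p = 0.0154) and did not pass in preadipocytes (0.78 ± 0.38, adjusted p = 0.0956). Its libraries were spread widely outside progenitors (23.2, 25.6 and 21.4 CPM). It stood at 70.9, 74.6 and 35.6 CPM in intermediate cells, 64.5, 38.5 and 18.0 CPM in preadipocytes and 45.0, 25.1 and 22.1 CPM in SMC libraries. Fabp5, a fatty acid binding protein that can carry retinoic acid to another nuclear receptor, Ppard, stood at 605 ± 54.6 CPM in preadipocytes against 118 ± 17.5 CPM in progenitors (log2 2.35 ± 0.15, adjusted p = 3.61e-09).

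Genes known to respond to retinoic acid differed in both directions. Of 13 such genes, 12 were tested and Stra8 was not. Against progenitors, 2 were higher and 7 lower in preadipocytes (beside 50.9% of all genes called), 1 was higher and 2 lower in intermediate cells (beside 27.6%), and 3 were higher and 5 lower in SMC libraries (beside 54.1%). Rarres1 stood at 52.5 ± 4.01 CPM in SMC libraries against 6.66 ± 1.62 CPM in progenitors (log2 2.97 ± 0.23, adjusted p = 3.82e-08). Tgm2, a transglutaminase, stood at 149 ± 14.0 CPM in SMC libraries and 94.8 ± 9.12 CPM in intermediate cells against 40.8 ± 8.51 CPM in progenitors, and both differences passed (log2 1.87 ± 0.17 and 1.22 ± 0.17). Rarres2, the secreted adipokine chemerin, was lower in preadipocytes, at 45.2 ± 11.1 CPM, than in progenitors, at 123 ± 2.28 CPM (log2 -1.45 ± 0.18, adjusted p = 5.78e-06). Rai14 was lower in preadipocytes (log2 -1.85 ± 0.13) and in SMC libraries (log2 -1.64 ± 0.13) than in progenitors. The SMC values stand beside the mesothelial, Schwann and neuronal transcripts of these libraries, whose part was not tested.

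**Figure D5:**
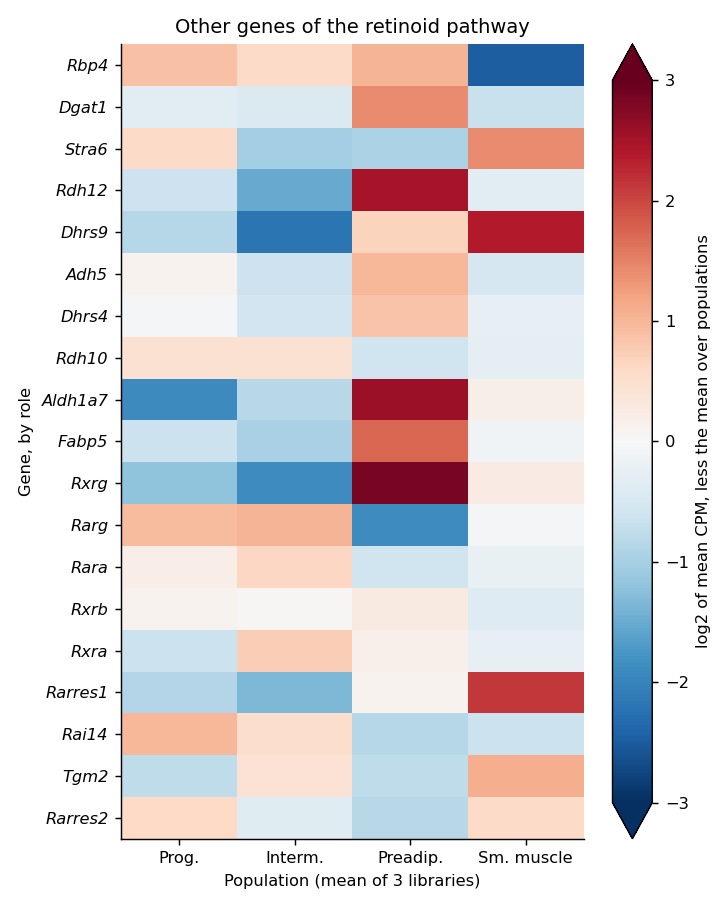
Mean level of 19 other pathway genes in each population (columns), as log2 of the mean CPM less its mean over the 4 populations (colour scale, -3 to 3), ordered by role from uptake to response genes. Preadipocytes stand out with high Rdh12, Aldh1a7, Fabp5 and Rxrg and low Rarg, and SMC libraries with high Dhrs9 and Rarres1 and low Rbp4.

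Likeness of 2 genes was measured as the root mean square difference of their centred log2 CPM over the 12 libraries, which share their depth and scaling, with 0 for the same pattern. Among the 9 genes, Dhrs3 and Rarb were the most alike pair, at 0.27. Among 10954 other tested genes, those nearest to Dhrs3 were Phf21a (0.115) and Stoml1 (0.123), and those nearest to Rarb were Tril (0.156) and Poglut3 (0.165), beside medians of 0.747 and 0.771 over all candidates. The gene nearest to Adh1 was Lpl, lipoprotein lipase (0.291, with a median of 2.18 over all candidates), followed by Ptx3 (0.561). Lpl stood at 1513 ± 53.1 CPM in progenitors, 238 ± 21.5 CPM in intermediate cells, 2025 ± 450 CPM in preadipocytes and 49.4 ± 5.15 CPM in SMC libraries, so that it shared with Adh1 the low level in intermediate cells. The gene nearest to Aldh1a2 was Lrrn4 (0.450), which is among the 9 mesothelial markers and stood at 247 ± 19.1 CPM in SMC libraries, followed by Tmem151a (0.457). Nearest to Aldh1a3 were Tek (0.566), the angiopoietin receptor, at 116 ± 12.03 CPM in progenitors and at most 15.8 CPM on average elsewhere, and Gfpt2 (0.575). Crabp1 was nearest to H2-M3 (0.262) and Srpx (0.274), and Crabp2 to Diaph1 (0.209) and Ntpcr (0.216). Aldh1a1 and Cyp26b1 had no closer gene than Eif5a2 (0.446) and Adam12 (0.501).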

How the data were processed

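RNA of 12 sorted samples was amplified with a SMART-Seq low-input kit that selects poly(A) RNA, per the labels' protocols. The submitters' processing notes list STAR 2.5.2a, DESeq2 1.26.0 and mm10. How reads were assigned to genes, with which annotation and whether by strand, is not given. The authors deposited whole-number read counts per gene and library for 36512 genes, and these counts were used. A normalized table and a log-scale table, also deposited, were not used.

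Groups came from the titles. The filterByExpr step left 21285 genes. Counts were scaled by TMM (factors 0.823 to 1.20), and 1 quasi-likelihood model with a term for each population was fitted to the 12 libraries together (glmQLFit and glmQLFTest, edgeR 4.0.16, R 4.3.3). Tests were two-sided, p-values were adjusted over all genes tested by the Benjamini-Hochberg method, and a call is an adjusted p under 0.05. The script was first checked on simulated counts. Replicate pairs differed by 4.06 to 77.2 chi-square per degree of freedom, so no pair was the same library. Levels per kilobase were CPM by library size alone over the merged exons of GENCODE annotation on mm10, and principal transcript lengths and TMM-scaled sums were added after the data were seen. Promoter windows came from RefSeq (GRCm38.p6) and matched 7 of the 9 genes.

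The 9 genes, the pathway and marker lists and the alternatives were chosen with earlier results of these data known. All 9 genes are named in each comparison. Other pathway genes are named by a rule: up to 4 per role with the smallest p for any difference among populations, and Rdh10, Stra6, Rara, Rarg and Rxra, with 1 further gene of the rule not reported here. Genes most like each of the 9 were the nearest 2 with a mean log2 CPM of at least 2, without predicted genes. Alternatives were DESeq2-type size factors, library size alone, DESeq2 1.42.0, no filter on low counts, at least 5 CPM in 3 libraries, the 2 compared populations alone, a replicate block, and leaving out each library.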

Additional observations from a re-analysis of the deposited data

How the results depend on the processing

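Of 690 alternative values for the 9 genes in the 6 comparisons, 589 kept direction and call, 53 lost the call and 29 gained it. The other 19 changed sign, and none of these had a call under the setting that changed it. Among them, Dhrs3 in SMC against intermediate libraries had a call in the main fit. The number of genes called in SMC against progenitor libraries was 11525, and 17437 with no low-count filter and 6948 with at least 5 CPM in 3 libraries, as more or fewer genes were tested. In SMC against preadipocyte libraries it was 14182, and 9347 with the 5 CPM filter. With library size alone, SMC against intermediate libraries gave 10454 genes, beside 6127, and 2 of the 9 genes, beside 4. That scaling moved the median log2 difference of all genes from 0.0369 to 0.426 in preadipocytes against progenitors, from 0.0906 to 0.532 in SMC against progenitor libraries, from -0.244 to 0.188 in preadipocytes against intermediate cells and from 0.0951 to 0.58 in SMC against intermediate libraries. The splits of higher and lower genes became 7857 and 3773 (main 5340 and 5503), 9683 and 2015 (6501 and 5024), 7760 and 4233 (5540 and 6617), and 9321 and 1133 (3346 and 2781). The values that changed sign with library size alone, as fitted and not relative to these medians, were 0.15 for Adh1 and 0.046 for Cyp26b1 in preadipocytes against progenitors, 0.047 for Aldh1a2 in preadipocytes against intermediate cells, and 0.029 for Dhrs3 and 0.39 for Aldh1a1 in SMC against intermediate libraries. With no low-count filter Aldh1a3 and Crabp2 in SMC against intermediate libraries became -0.14 and -0.056. The cause was not tested.

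Leaving out each library gave 3780 (without progenitor replicate 1) to 6422 genes called in intermediate cells against progenitors, beside 5870, and 2 (without SMC replicate 1) to 4 of the 9 genes in SMC against intermediate libraries. Signs changed, without a call, within -1.04 to 0.22 for Aldh1a2 in preadipocytes against intermediate cells. In SMC against intermediate libraries they did so within -0.13 to 0.42 for Crabp2, -0.38 to 0.32 for Aldh1a3 and -0.013 to 0.78 for Cyp26b1. In SMC against preadipocyte libraries they did so within -0.37 to 0.19 for Crabp2 and -0.80 to 0.12 for Cyp26b1. With a replicate block, Crabp2 lost its call in preadipocytes against progenitors (-0.72, adjusted p = 0.0620). Dhrs3 lost it in SMC against intermediate libraries (-0.45, adjusted p = 0.0610), and Rarb in SMC against preadipocyte libraries (0.54, adjusted p = 0.0510). The other calls of the 9 genes in the 6 comparisons stayed as they were. Same-numbered libraries correlated at -0.163 to 0.207, and 12 of 36 correlated best with their own number. These values show no clear pairing by number and cannot exclude a shared litter or sort. Dehydrogenase shares that moved by over 1 SD with the principal transcript length were Aldh1a1 in progenitors (16.5%), intermediate cells (78.4%) and SMC libraries (17.0%) and Aldh1a2 in intermediate cells (8.97%) and SMC libraries (80.0%). Counts of 2 to 62 per library limit Crabp2 and Cyp26b1.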
